A study of Mus musculus with 6 samples.

Results

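The genes of the DEAD box and DEAH box RNA helicases were examined in mouse embryonic stem cells (mESCs) whose RNA polymerase II (Pol II) can be degraded on demand. They were chosen by name alone, as the gene symbols made of Ddx or Dhx and a number, with or without the letter a, b or x, and Ddx3y was left out by the same rule. This gave 53 of the 39017 genes in the count tables, 37 named Ddx and 16 named Dhx.

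PolyA RNA was sequenced from 6 libraries in 3 groups of 2. All were labelled V6.5, an mESC line from a cross of C57BL/6 and 129/sv mice that is grown on irradiated mouse fibroblasts. In the Pol II degron cells, a homozygous clone picked for its degradation of the protein, RPB1 (the product of Polr2a) carries mAID-GFP at its C terminus, and a doxycycline-inducible OsTIR1 stands at Rosa26. OsTIR1 is a plant protein that, when auxin is present, marks mAID fusions for destruction. The untreated and the auxin-treated cells both received 1 μg/ml doxycycline for 12 h, and the latter also 500 μM auxin for 6 h. The wild-type cells carry neither construct, and whether they received doxycycline is not given in the sources used here. Since the degron line is 1 clone and the wild-type counts stand in a table of their own, clone, doxycycline and preparation cannot be told apart from genotype. The labels only number the replicates, while the study's methods call the replicates of its sequencing experiments biological, without saying how the cultures were separated, and p-values measure the spread between these libraries.

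RNA helicases use ATP to part short RNA duplexes or to strip proteins from RNA. DEAD box and DEAH box proteins are named after a run of amino acids in their ATP-binding core, and they act at nearly every step of an RNA's life, from ribosome assembly in the nucleolus and splicing of pre-mRNA to export, translation and decay of mRNA. Growing stem cells need much ribosome production and splicing, and some family members serve instead in sensing viral RNA or in the germ line. By known role the 53 genes were placed in ribosome biogenesis (16 genes), pre-mRNA splicing (12), mRNA export, translation and decay (8), DNA and other nuclear RNA (4), sensing of foreign RNA (3), germ line (3), mitochondrial RNA (2), and other or less defined roles (5). One of the last group, Ddx26b, is called Ints6l in the GENCODE vM21 annotation, after its likeness to a subunit of Integrator. Integrator is the complex that cuts nascent Pol II transcripts. Ddx26b thus belongs here by its older symbol, and it is counted among the helicases below for that reason only.

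Between 14094022 and 15358714 reads were counted per library. The summed level of 8 markers of embryonic stem cells was 2851 to 4946 counts per 1000000 counted reads (CPM) over the 6 libraries. It was 3500 and 3833 CPM in untreated, 2851 and 3054 after auxin and 4946 and 4889 in wild-type cells. The sum of 8 fibroblast markers was 158 and 153, 182 and 208, and 119 and 124 CPM in the same order. The groups overlapped in neither sum. After auxin the stem cell sum was lower and the fibroblast sum higher than in untreated cells, and in wild type the reverse. Not every marker followed its sum. Pou5f1 had 10625 and 12703 counts in untreated and 12622 and 13854 in auxin-treated cells. Zfp42 had 5614 and 5627 counts in untreated and 4960 and 4913 in wild-type cells. Of the fibroblast markers, Postn had 34 and 20 counts in untreated and 43 and 70 in wild-type cells. In such bulk libraries, fewer cells of a type and less RNA per cell cannot be told apart, and the part of these markers in the results below was not tested. GEO's extraction note for the wild-type samples speaks of retinas, but 9 retina markers summed to 7.85 and 7.86 CPM there, against 5.80 to 7.20 CPM in the degron libraries, with Crx and Rcvrn at 0 in all. Polr2a mRNA, whose protein and not mRNA is the target of auxin, had 6623 and 6568 counts in untreated, 10396 and 10663 in auxin-treated and 6866 and 7129 in wild-type cells.

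Promoter sequence was available for 47 of the 53 genes, as 250 bases before and 50 after the start of a RefSeq transcript in GRCm38.p6. Some genes have more than 1 such window (Ddx5 has 3), and a motif in any of them was counted. Short sequences known as promoter elements were counted on both strands. The GC box GGGCGG was found in 34 of the 47 genes (72.3%), against 67.7% of the tested genes with a promoter sequence and 38.2% of all genes with one. The ETS core CCGGAAG, the site shape read by the ETS family of activators, stood in 19 genes (40.4%), against 18.3% of tested and 9.93% of all genes. The CCAAT box was found in 51.1% (tested genes 42.8%), the E-box CACGTG in 14.9% (11.5%), the TATA box TATAAA in 12.8% (9.03%) and the cyclic AMP response element TGACGTCA in 10.6% (3.45%). These shares are descriptions of letters in a window and were not tested. The 250 bases before the start are shown for 4 genes that recur in the results below, on the strand of the gene and with the listed motifs in capitals. Ddx26b is the only gene called after auxin, Dhx9 and Dhx15 were among the genes most clearly higher in wild type, and Ddx25 was the gene furthest below its untreated level there. The windows lie at chrX:56454589-56454838 (plus strand), chr1:153487661-153487910 (minus), chr5:52190547-52190796 (minus) and chr9:35558471-35558720 (minus). Ddx26b holds 1 GC box and 2 CCAAT boxes, Dhx9 holds 2 GC boxes and 1 ETS core, Dhx15 holds 1 GC box and 1 CCAAT box, and Ddx25 holds 2 overlapping GC boxes and 1 CCAAT box.
Ddx26b: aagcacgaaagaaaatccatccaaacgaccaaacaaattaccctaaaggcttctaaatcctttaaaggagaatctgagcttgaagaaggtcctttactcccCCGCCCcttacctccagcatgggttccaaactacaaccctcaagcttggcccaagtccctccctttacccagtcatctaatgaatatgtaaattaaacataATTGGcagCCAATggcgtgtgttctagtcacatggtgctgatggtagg
Dhx9: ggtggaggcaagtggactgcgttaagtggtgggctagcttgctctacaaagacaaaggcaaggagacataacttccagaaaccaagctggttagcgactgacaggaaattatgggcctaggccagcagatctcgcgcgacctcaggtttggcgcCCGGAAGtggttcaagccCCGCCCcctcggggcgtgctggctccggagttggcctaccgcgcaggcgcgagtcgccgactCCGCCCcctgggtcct
Dhx15: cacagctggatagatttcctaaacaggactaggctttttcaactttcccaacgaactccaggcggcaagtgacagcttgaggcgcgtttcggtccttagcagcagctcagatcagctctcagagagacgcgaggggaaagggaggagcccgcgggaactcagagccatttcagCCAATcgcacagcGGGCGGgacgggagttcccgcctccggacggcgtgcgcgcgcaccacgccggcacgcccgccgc
Ddx25: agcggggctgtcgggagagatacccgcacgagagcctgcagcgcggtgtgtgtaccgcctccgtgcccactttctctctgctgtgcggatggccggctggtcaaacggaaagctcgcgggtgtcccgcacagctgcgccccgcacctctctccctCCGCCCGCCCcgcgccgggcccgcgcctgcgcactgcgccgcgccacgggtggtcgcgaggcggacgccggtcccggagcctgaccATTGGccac

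Every one of the 53 genes was detected in every library, with 12 to 13323 counts. Of these, 50 had at least 100 counts and 28 at least 1000 counts in each library, and the 3 with a count under 100 were Ddx60, Dhx58 and Ddx25. Levels were compared between genes as CPM per kb of annotated exon, scaled over the 6 libraries by the TMM method, which takes the typical gene as unchanged. In untreated cells the median gene stood at 14.3 CPM per kb, 37 genes stood at 10 or more, and Dhx58 and Ddx60 stood under 1. The highest was Ddx5, a cofactor of splicing and transcription, at 148 ± 2.08 CPM per kb (SD, n = 2), followed by Ddx3x, which helps translation start, at 144 ± 4.02, and Ddx17, the close relative of Ddx5, at 95.7 ± 3.16. Ddx21, a nucleolar helicase that works with Pol I, came next at 71.7 ± 5.19. The order of Ddx5 and Ddx3x lies within their spread in the untreated cells, while the steps down to Ddx17 and from there to Ddx21 exceed it. The lowest was Ddx60, an interferon-induced gene, at 0.211 ± 0.0825 CPM per kb.

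**Figure D1:**
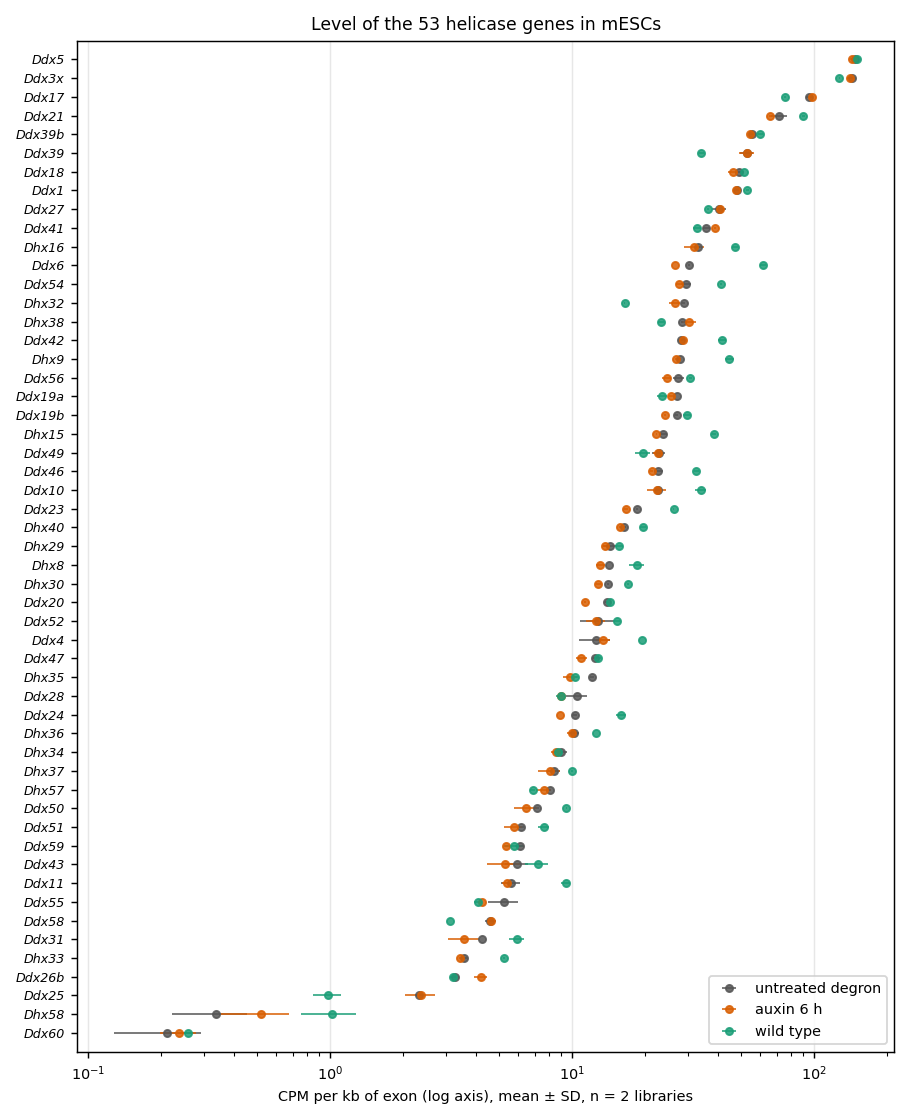
Level of each of the 53 genes in CPM per kb of exon on a log axis, as mean ± SD of 2 libraries, for untreated (grey), auxin-treated (orange) and wild-type (green) cells, sorted by the untreated level. Grey and orange points lie nearly on top of each other from Ddx5 (148 CPM per kb) down, while green points such as those of Ddx6, Dhx9, Dhx32 and Ddx25 stand apart.

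The helicases took 0.740% and 0.737% of all counts in the untreated libraries, 0.735% and 0.723% after auxin, and 0.781% and 0.791% in wild type. Ddx5, Ddx3x and Ddx17 together held 32.1% and 31.8% of the helicase counts in untreated cells, 33.1% and 32.3% after auxin, and 26.0% and 25.9% in wild type. Replicates differed by a median of 0.057 on the log2 scale in untreated, 0.064 in auxin-treated and 0.055 in wild-type cells. The largest gaps between replicates were those of the scarce genes Ddx60 (0.82 in untreated) and Dhx58 (0.65 after auxin and 0.54 in wild type).

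Reads can be shared between look-alike or overlapping genes, and the strand setting and treatment of shared reads in the counting are not given in the sources used here. No stretch of 100 exon bases was shared with another gene in 34 of the 53 genes, and over 5% of the stretches were shared in 8. These were Ddx18 (34.6%, chiefly with Gm16433), Ddx49 (21.1%, with Homer3 on the opposite strand), Ddx19a and Ddx19b (19.3% and 8.57%, with each other), Ddx43, Ddx54, Ddx39 (7.81%, with Adgre5 on the opposite strand) and Ddx41. These are shares of sequence, and their effect on the counts of these 8 genes was not measured. Another annotated gene overlaps 10 of the 53 genes on the same strand, among them Ddx6 and Dhx15, and 14 on the opposite strand.

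Loss of Pol II protein for 6 h left most helicase mRNAs near their untreated levels relative to the typical gene, the scale of all values here unless another is named. Of the 53 genes, 1 was called higher and 0 lower at an adjusted p under 0.05 in the quasi-likelihood test of edgeR, with Benjamini-Hochberg adjustment over 16128 genes, against 4.20% of all tested genes called (2.56% higher and 1.64% lower), and 3.95% of those with a mean of at least 100 counts (1.61% higher and 2.34% lower). At an unadjusted p under 0.05 there were 7 (all tested genes 20.1%), and DESeq2 called 0 in either direction, against 236 of 25815 genes. The log2 fold change was under 0.25 in size for 48 of the 53 genes, against 71.6% of all tested genes and 85.3% of those with at least 100 counts. No RNA of known amount was used for scaling here, so a loss common to every mRNA cannot be seen on this scale. No helicase passed 1 in size, called or not, against 567 of 16128 tested genes (called and past 1 among all tested genes, 1.53%).

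Within that narrow band more genes lay below than above their untreated level. The median log2 fold change was -0.047 (all tested genes 0.00), with 38 genes negative and 15 positive. With the mitochondrial scaling it was -0.22 (all tested genes -0.17), and with no filter -0.069 (all tested genes 0.020), where 8 of the 53 genes stood above the median of all genes in place of 15. With the 4 libraries scaled together, both auxin libraries lay below both untreated libraries for 21 genes and above them for 4, where all tested genes gave 24.8% lower and 25.0% higher, and those with at least 100 counts 29.7% and 20.7%. By role, the median was -0.083 for ribosome biogenesis (14 of 16 genes negative), -0.028 for splicing (7 of 12), -0.045 for mRNA export, translation and decay (7 of 8), and 0.19 for the 3 RNA sensors, of which 2 have few counts. None of these medians was tested.

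Ddx26b, on chromosome X from 56454857 to 56507843 of mm10, plus strand, was the gene called. It had 23.7 and 23.5 CPM in untreated, 28.7 and 31.4 in auxin-treated and 22.6 and 23.5 in wild-type cells, from 339 and 341, 458 and 486, and 321 and 336 counts. Both auxin libraries stood above all 4 others. The log2 fold change after auxin was 0.37 (standard error 0.09, 1.29-fold, adjusted p = 0.0467, edgeR). This call stood close to the threshold: the adjusted p was 0.397 with DESeq2, 0.163 with no filter on low counts, 0.0548 with at least 10 counts required in every library, 0.672 with scaling to the mitochondrial mRNAs, and 0.157 and 0.359 without auxin replicate 1 and 2.

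The 6 other genes with an unadjusted p under 0.05 were all lower after auxin and missed the adjusted threshold. Ddx20, the Gemin3 helicase of the SMN complex that builds spliceosomal snRNPs, had 57.0 and 58.0 CPM in untreated and 47.2 and 46.4 in auxin-treated cells (log2 fold change -0.28, standard error 0.08, adjusted p = 0.0548, edgeR). Dhx35, a spliceosome component, had 61.5 and 63.3 CPM in untreated and 53.4 and 48.4 after auxin (-0.27, standard error 0.08, adjusted p = 0.0700, edgeR). For both genes the groups did not overlap. Ddx55, a ribosome assembly factor, had the largest negative value (-0.29, standard error 0.11, adjusted p = 0.163, edgeR), with 24.9 and 30.5 CPM in untreated and 22.5 and 22.3 after auxin. Its value rests on the untreated replicates: it was -0.43 without replicate 1 (adjusted p = 0.00255, edgeR) and -0.14 without replicate 2, where Ddx20 (-0.27) and Dhx35 (-0.26) lay lower. Ddx24, Ddx47 and Ddx6 had log2 fold changes of -0.19, -0.17 and -0.16 and adjusted p-values of 0.138 to 0.220 by edgeR. Dhx35, Ddx20 and Ddx55 were called lower when the replicate number was used as a block. That fit called 1930 of 16128 tested genes in either direction, against 677 without the block. Whether the numbers pair the samples is not given by the labels.

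The most abundant helicases moved little. Ddx5 had 845 and 862 CPM in untreated and 836 and 817 after auxin (log2 fold change -0.028, standard error 0.07). Ddx3x had 774 and 744 CPM against 756 and 728 (-0.014, standard error 0.07), and Ddx17 had 714 and 748 CPM against 753 and 738 (0.048, standard error 0.07). The libraries of the groups overlapped for Ddx3x and Ddx17, and for Ddx5 when scaled within the 4 libraries of the comparison. Dhx9, which unwinds double-stranded RNA and RNA-DNA hybrids, had 269 and 265 CPM in untreated and 261 and 257 after auxin on the scale of all 6 libraries, and its log2 fold change was -0.026 (standard error 0.07). Among the close relatives, Ddx21 and Ddx50 stood at -0.10 and -0.12, Ddx19a and Ddx19b at -0.06 and -0.14, and Ddx39 and Ddx39b at 0.02 and 0.003, on the log2 scale and with no call. Of the 53 genes, Dhx58 had the largest value of either sign, 0.62, from 12 and 20 counts in untreated and 21 and 32 after auxin, with a standard error of 0.38.

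**Figure D2:**
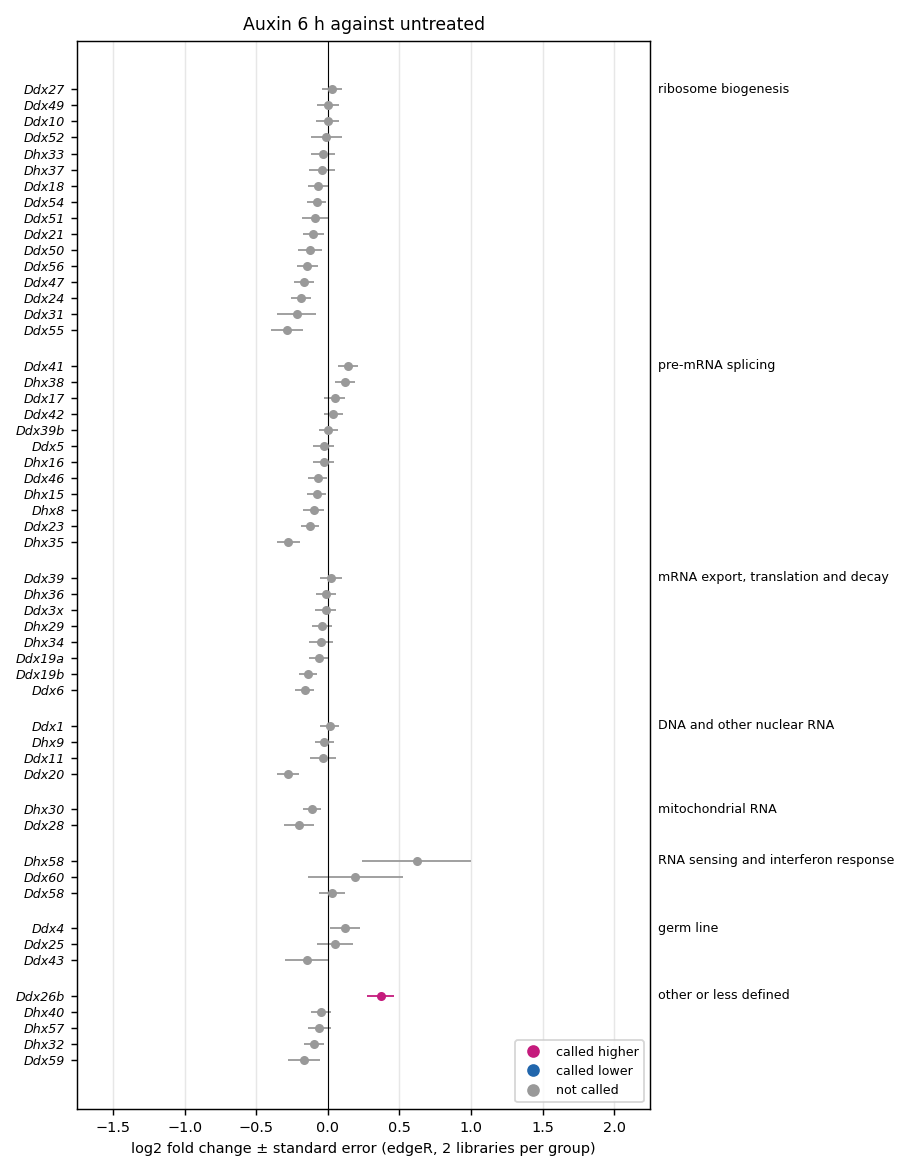
Log2 fold change after 6 h of auxin against untreated cells (x axis) with its standard error for the 53 genes, grouped by role and sorted within each role, 2 libraries per group. All points but 5 lie within 0.25 of 0, and Ddx26b (0.37) alone is coloured as called.

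Genes that work beside these helicases, taken from lists written down for this purpose, were read in the same comparison, in which 1.64% of all tested genes were called lower and 2.56% higher. Among 23 RNA helicases of other families or with other names, 0 were called higher and 1 lower: Eif4a2, a DEAD box translation factor that does not carry the Ddx prefix, went from 11815 and 12067 to 9026 and 8057 counts (log2 fold change -0.59, standard error 0.08, adjusted p = 0.00157, edgeR), a call lost without auxin replicate 2 (-0.53, adjusted p = 0.0959, edgeR). Of 20 G-patch proteins, which switch on DEAH box helicases, Gpatch1 was called lower (-0.42, adjusted p = 0.0292, edgeR), and of 12 genes of Pol I and its factors, Twistnb (-0.42, adjusted p = 0.0234, edgeR). Of 23 ribosome biogenesis cofactors, Wdr43 and Utp15 were called lower (-0.27 and -0.29, adjusted p = 0.0379 and 0.0434, edgeR). The calls of Gpatch1, Twistnb, Wdr43 and Utp15 were each lost with DESeq2, with no filter and without either auxin replicate. None of 19 partners of DDX6, DDX19 and eIF4A and none of 11 tested interferon-stimulated genes was called in edgeR's test, with 4 and 1 of them at an unadjusted p under 0.05. DESeq2 called 1 gene lower among the other RNA helicases and 0 in the remaining lists.

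Wild-type cells differed from the untreated degron cells in many helicase mRNAs, in a comparison where most genes differed. The comparison uses the same untreated libraries as that of auxin, so a chance deviation of those libraries enters both. By the same edgeR test over 15778 genes, 24 of the 53 helicases were called higher in wild type, 12 lower and 17 were not called. Of all tested genes 60.6% were called, 29.9% higher and 30.7% lower, and of those with at least 100 counts 67.0%, 35.8% higher and 31.2% lower. Both wild-type libraries lay above both untreated libraries for 33 genes and below for 16, against 40.0% and 41.0% of all tested genes and 44.9% and 39.8% of those with at least 100 counts. At an unadjusted p under 0.05 there were 41 helicases and 64.6% of all tested genes. The median log2 fold change was 0.15 (all tested genes -0.010), and 3 genes were called and past 1 in size, Dhx58, Ddx6 and Ddx25, where 18.1% of all tested genes were.

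These directions hold relative to the typical gene and depend on the scaling. With library totals as the only scaling 22 helicases were called higher and 15 lower, and 9495 of 15778 tested genes were called in either direction. When the libraries were scaled to the 13 mitochondrial mRNAs instead, the median of all tested genes shifted to -2.10 and that of the helicases to -1.94. There 0 helicases were called higher and 52 lower, and 15308 of 15778 tested genes were called. Relative to the median of all genes the helicase median was 0.165 with TMM and 0.167 with the mitochondrial scaling, and 35 of the 53 genes stood above the median of all genes in both. All directions given for wild type below are on the TMM scale. Of the 36 called genes, 25 kept their call and sign under each of 11 other alternatives (other scalings, DESeq2, other filters and fits, and each library left out), and the 11 that did not are Ddx51, Ddx52, Dhx37, Dhx40 (higher), Ddx3x, Ddx19a, Ddx49, Ddx55, Dhx35, Dhx38 and Dhx57 (lower).

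Among the helicases of mRNA export, translation and decay, 2 of 8 were higher and 3 lower, shares near the 29.9% and 30.7% of all tested genes. Ddx6, which represses translation and promotes decapping of mRNAs in P-bodies, was the most clearly changed of all 53 genes. It lies at chr9:44604892-44640731 of mm10 on the plus strand, and had 245 and 242 CPM in untreated, 215 and 214 in auxin-treated and 485 and 505 in wild-type cells. The wild-type values were about double those of the other libraries, and the log2 fold change was 1.02 (standard error 0.06, 2.02-fold, adjusted p = 9.57e-08, edgeR). Per kb of exon Ddx6 moved from rank 12 of the 53 genes in untreated cells to rank 5 in wild type. Dhx36, which resolves G-quadruplexes in mRNA, was higher by 0.29 (standard error 0.06).

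Ddx39, a paralogue of the mRNA export factor Ddx39b, had 259 and 284 CPM in untreated, 259 and 286 after auxin and 180 and 173 in wild-type cells (log2 fold change in wild type -0.63, standard error 0.07, adjusted p = 7.50e-06, edgeR). Ddx39b had 206 and 212 CPM in untreated and 230 and 222 in wild-type cells (0.11, standard error 0.06, adjusted p = 0.129, edgeR). Per kb of exon the pair stood side by side in untreated cells, at 52.7 ± 3.35 (Ddx39) and 55.2 ± 1.03 (Ddx39b). In wild type it stood apart, at 34.2 ± 0.927 and 59.8 ± 1.42 (SD, n = 2). The near equality depends on the lengths used, 5.155 kb of annotated exon for Ddx39 and 3.783 kb for Ddx39b. In CPM Ddx39 stood above Ddx39b in untreated cells. Ddx3x was lower by a small margin, with 774 and 744 CPM in untreated and 669 and 674 in wild-type cells (-0.18, standard error 0.06, adjusted p = 0.0185, edgeR). Ddx19a, a helicase of the nuclear pore, was lower (-0.21, standard error 0.07, adjusted p = 0.0190, edgeR), while its neighbour Ddx19b stood at 0.14 (standard error 0.06) without a call. The calls of Ddx3x and Ddx19a were each lost without wild-type replicate 1 and without replicate 2.

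In splicing 6 of 12 helicases were higher and 3 lower, against the same 29.9% and 30.7% of all tested genes, so that the share of lower genes was near that of all genes. Dhx15, which takes spent spliceosomes apart, had 198 and 207 CPM in untreated, 190 and 188 after auxin and 332 and 324 in wild-type cells. Both wild-type libraries lay far above the 4 others, and the log2 fold change was 0.69 (standard error 0.06, 1.61-fold, adjusted p = 1.71e-06, edgeR). The helicases that act in order on the assembling and active spliceosome did not all go one way. Ddx46 and Ddx42, which act with the U2 snRNP, were at 0.51 and 0.55, Ddx23, which swaps the U1 snRNP for U6, was at 0.50, Dhx16, which readies the spliceosome for its first step, at 0.50 and Dhx8, which releases the spliced mRNA, at 0.38, all called higher with standard errors of 0.06 to 0.07. Dhx38, which acts before the second step, was lower (-0.29, standard error 0.06), as was Dhx35 (-0.24, standard error 0.07). Dhx38 had 141 and 142 CPM in untreated and 118 and 114 in wild-type cells.

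Ddx5 and Ddx17, partners in splicing and transcription, parted ways. Ddx5 had 845 and 862 CPM in untreated and 870 and 868 in wild-type cells (log2 fold change 0.020, standard error 0.06, adjusted p = 0.792, edgeR). Ddx17 had 714 and 748 CPM in untreated, 753 and 738 after auxin and 576 and 582 in wild-type cells (-0.34, standard error 0.06, adjusted p = 0.000421, edgeR). The difference between the pair was not tested.

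In ribosome biogenesis 10 of 16 helicases were higher and 2 lower, with a median log2 fold change of 0.28, where 29.9% of all tested genes were higher and 30.7% lower. Ddx24 was the most clearly higher, at 85.9 and 83.3 CPM in untreated, 73.2 and 73.3 after auxin and 127 and 136 in wild-type cells (0.63, standard error 0.07, adjusted p = 9.33e-06, edgeR). Ddx10, Dhx33, Ddx31 and Ddx54, nucleolar factors, were higher by 0.57, 0.54, 0.48 and 0.47. Ddx21 had 352 and 390 CPM in untreated, 338 and 345 after auxin and 463 and 471 in wild-type cells (0.32, standard error 0.07, adjusted p = 0.00119, edgeR), and its paralogue Ddx50 was higher by 0.40 (standard error 0.07). Ddx51, Ddx52 and Dhx37 were higher by 0.24 to 0.30. Ddx49 and Ddx55 were lower by 0.23 and 0.36, calls that were lost with DESeq2, where the adjusted p of Ddx55 was 0.0828. Ddx18, Ddx27, Ddx47 and Ddx56 were not called.

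Of the 4 helicases of DNA and other nuclear RNA, Dhx9 and Ddx11 were called higher and 0 lower. Of all tested genes 29.9% were higher and 30.7% lower, and of those with a mean of at least 100 counts 35.8% and 31.2%. Dhx9, at chr1:153455758-153487660 on the minus strand, had 269 and 265 CPM in untreated, 261 and 257 after auxin and 416 and 442 in wild-type cells (log2 fold change 0.67, standard error 0.06, 1.60-fold, adjusted p = 2.48e-06, edgeR). Ddx11, a DNA helicase of sister chromatid cohesion, had 34.7 and 39.3 CPM in untreated and 60.6 and 64.1 in wild-type cells (0.74, standard error 0.08, adjusted p = 1.17e-05, edgeR). For both genes the wild-type libraries stood above the 4 others. Ddx1, part of the tRNA ligase complex, and Ddx20 were not called. Of the mitochondrial helicases, Dhx30 was higher by 0.27 (standard error 0.06) and Ddx28 had -0.24 (standard error 0.10) without a call.

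**Figure D3:**
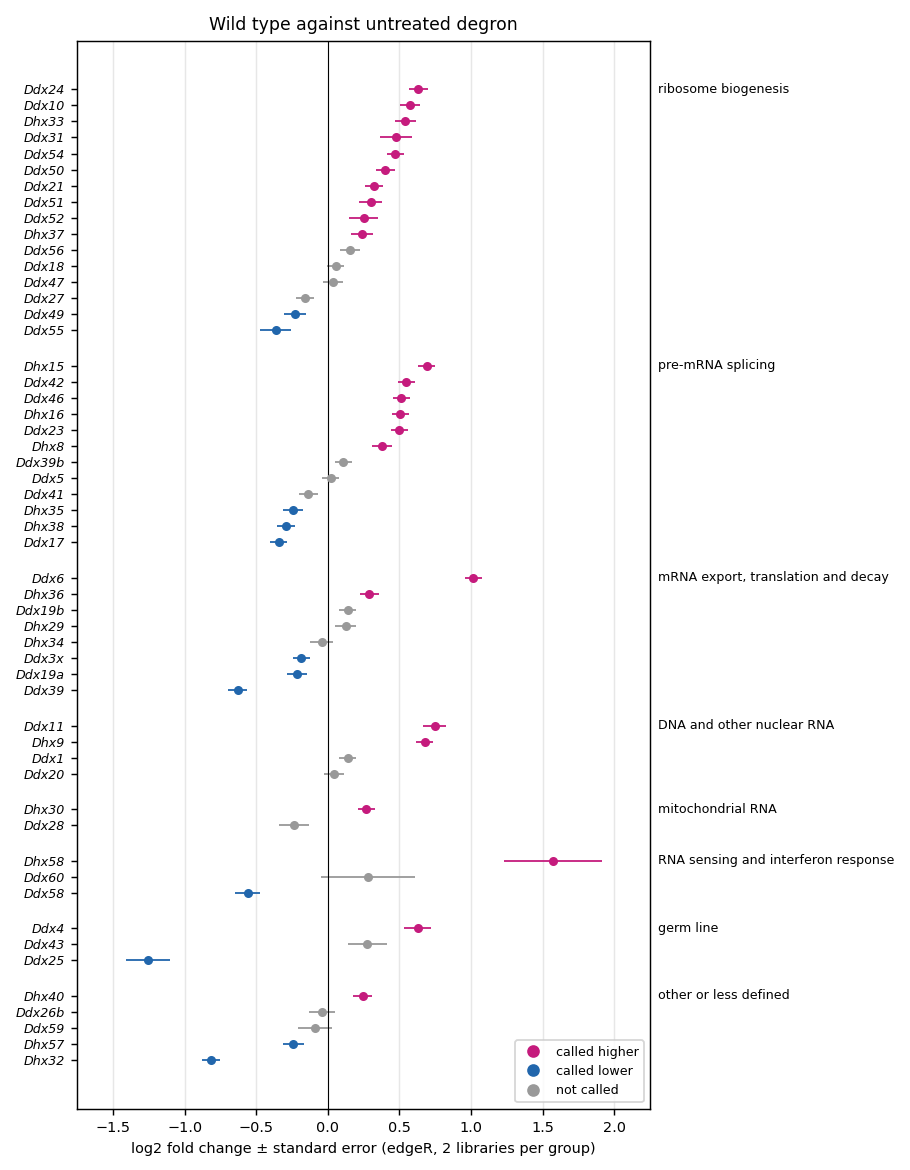
Log2 fold change of wild-type against untreated degron cells (x axis) with its standard error for the 53 genes, grouped by role and sorted within each role, 2 libraries per group, TMM scaling. Pink marks the 24 genes called higher, blue the 12 called lower and grey the 17 not called, and most groups hold both colours.

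The RNA sensors went in different directions. Ddx58 (RIG-I), which binds viral RNA and signals for interferon, had 33.6 and 31.3 CPM in untreated, 32.2 and 33.1 after auxin and 22.1 and 22.1 in wild-type cells (log2 fold change -0.56, standard error 0.09, adjusted p = 0.000202, edgeR). Dhx58 (LGP2), a relative that lacks the signalling part of RIG-I, had 12 and 20 counts in untreated, 21 and 32 after auxin and 56 and 39 in wild-type cells (1.57, standard error 0.34, adjusted p = 0.00202, edgeR). Its wild-type counts stood above the others, although its replicates differed by more than those of most genes. Ddx60 was not called, with 19 and 34 counts in untreated and 31 and 33 in wild-type cells. Of 11 tested interferon-stimulated genes, 7 were lower in wild type and 1 higher, where 30.7% of all tested genes were lower and 29.9% higher. The smallest p-values were those of Isg15 (96 and 115 counts in untreated, 8 and 3 in wild type, -4.22), Usp18 (43 and 46 against 1 and 6, -3.61) and Bst2 (2329 and 2698 against 1780 and 1781, -0.49). Ifih1, which is also among the other RNA helicases, had 46 and 45 counts in untreated and 11 and 7 in wild-type cells (-2.31). Ddx58 thus lay on the side of most of the tested interferon-stimulated genes and Dhx58 on the other.

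The germ line helicases also differed among themselves. Ddx25, a testis helicase, had 15.7 and 16.5 CPM in untreated, 14.9 and 18.1 after auxin and 7.40 and 6.14 in wild-type cells (log2 fold change -1.26, standard error 0.15, 0.419-fold, adjusted p = 2.63e-05, edgeR). Ddx4, the germ cell factor Vasa, had 41.8 and 33.8 CPM in untreated, 42.3 and 38.6 after auxin and 58.8 and 58.7 in wild-type cells (0.63, standard error 0.09, adjusted p = 0.000141, edgeR). Ddx43 was not called. Without TMM scaling, a list of 5 other germ line genes summed to 179 and 152 CPM in untreated and 184 and 168 after auxin. In wild-type cells it summed to 91.3 and 91.2 CPM, below the untreated sums like Ddx25 and unlike Ddx4. Not every gene of the list followed its sum. Mael had 318 and 332 counts in untreated and 336 and 313 in wild-type cells, and Tex101 had 19 and 11 against 16 and 10. The part of this list in these values was not tested.

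Of the remaining genes, Dhx32 was the most clearly lower of all 53. It had 119 and 121 CPM in untreated, 107 and 115 after auxin and 68.6 and 69.2 in wild-type cells (log2 fold change -0.81, standard error 0.06, 0.569-fold, adjusted p = 1.01e-06, edgeR). The gene overlaps Bccip and Fank1 on the opposite strand, so that its counts could hold reads of these genes. Dhx57 was lower by 0.24, a call lost with DESeq2 and without either wild-type replicate, and Dhx40 was higher by 0.24, a call lost without wild-type replicate 2. Ddx26b, called after auxin, stood at -0.04 (standard error 0.09) in wild type.

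**Figure D4:**
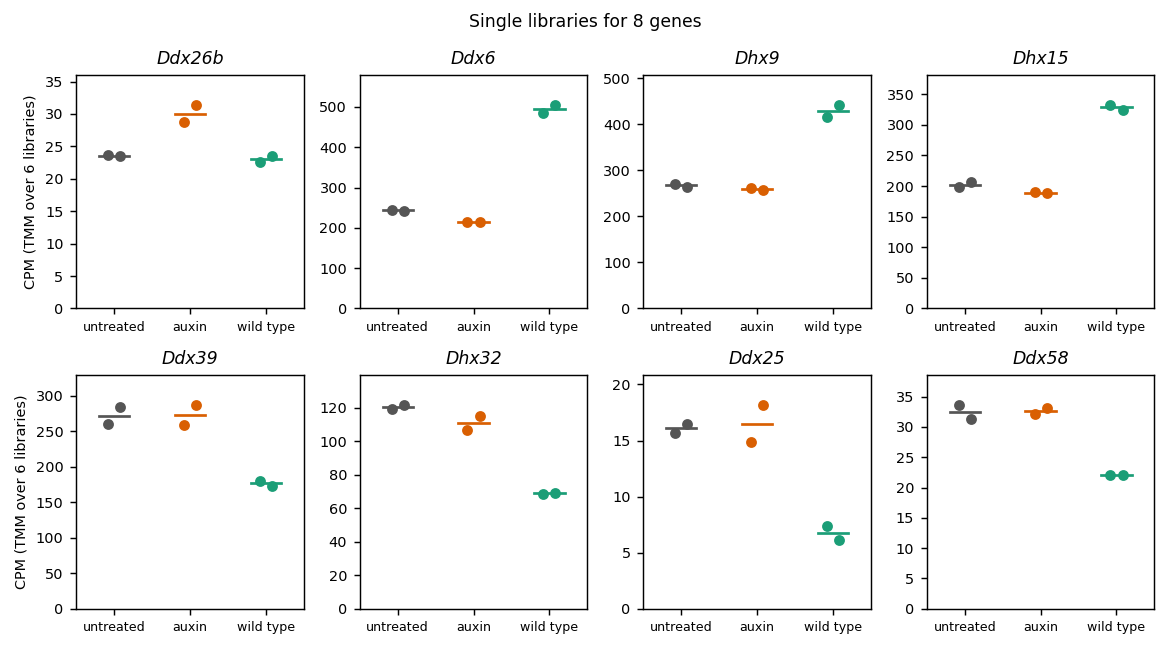
CPM of 8 genes in each of the 6 libraries (points; TMM scaling over all libraries, y axes from 0), with the mean of each group as a line. Ddx26b is higher in both auxin libraries only (28.7 and 31.4 CPM), Ddx6, Dhx9 and Dhx15 are higher and Ddx39, Dhx32, Ddx25 and Ddx58 lower in both wild-type libraries than in the 4 degron libraries.

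In the promoter windows, the ETS core stood in 9 of the 20 genes with a sequence that were higher in wild type, in 4 of the 10 that were lower and in 6 of the 17 that were not called. The GC box stood in 17, 7 and 10 of these, and the CCAAT box in 8, 3 and 13, counted over the same windows. These counts are small and were not tested.

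The lists of neighbouring genes in wild type held calls in both directions, with 1 exception, and are to be read against the 29.9% of all tested genes that were higher and the 30.7% that were lower. For those with a mean of at least 100 counts the shares were 35.8% and 31.2%. Of 23 other RNA helicases, 15 were higher and 3 lower (median log2 fold change 0.50). Among those higher were Mov10 (1.25), which acts in RNA silencing and decay, and Mov10l1 (1.12), its relative in the germ line piRNA pathway. Those lower were Ifih1 (-2.31), Helz2 (-0.45) and Ascc3 (-0.42). DESeq2 called 13 of these other helicases higher and 2 lower. Of 20 G-patch partners 7 were higher and 4 lower (Aggf1 0.72, Son 0.53, Rbm6 0.52), and of 19 partners of DDX6, DDX19 and eIF4A 9 were higher and 3 lower, with Pdcd4 at 1.00, Lsm14b at 0.86 and Eif4g3 at -0.79. Of 23 ribosome biogenesis cofactors 9 were higher and 4 lower (Dkc1 1.01, Nolc1 0.69, Nop10 0.65). Of 12 genes of Pol I and its factors 6 were higher and 0 lower, with Polr1b at 0.89, Rrn3 at 1.00 and Polr1d at 0.58, where 6 genes had an unadjusted p under 0.05 and DESeq2 called 5 higher and 0 lower. With the mitochondrial scaling each of the genes named here as higher was lower.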

How the data were processed

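Per the paper's methods, the authors aligned paired reads to mm10 with HISAT2 2.1.0, counted them per GENCODE gene with Salmon and HTSeq, and deposited whole-number counts that are not normalized. The annotation release and strand setting are not given in the sources used here. Beside the degron counts, the authors deposited their own DESeq2 comparison (normalised mean signal, fold or ratio, log2 fold change and p-value columns), which was not read. Further columns of per-sample values, 2 in all, matched no sample here and were not used.

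The counts were analysed by edgeR 4.0.16, run under R 4.3.3 (filterByExpr with a minimum count of 10, TMM, glmQLFit and glmQLFTest, Benjamini-Hochberg adjustment over all tested genes). Each comparison was fitted on its own 4 libraries, with calls made at an adjusted p under 0.05. Fold changes carry a prior count of 0.125. CPM are counts per 1000000 after TMM scaling over the 6 libraries. The summed marker levels are the exception, as counts per 1000000 counted reads without TMM. Exon lengths, overlaps and shared stretches came from GENCODE vM21 (GRCm38, the build of mm10), and promoters from RefSeq GRCm38.p6. All 53 genes passed the filter in both comparisons. The tests were tried on simulated data. Library totals of 14094022 to 15358714 limit the precision of genes with few counts.

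Named genes were every helicase called after auxin, the 10 called with the smallest p in each direction in wild type, those past 1 in size, the 10 with most counts, Dhx9, the near-identical pairs, Polr2a, and from each list the 3 called genes with the smallest p, of which 1 is not reported here. Other genes are named where a role group is described or where they fill out a small count, as chosen after their values were seen. The genes, roles, lists and tests were chosen with earlier results of these data known. The alternatives were DESeq2 1.42.0, other scalings, other filters, a replicate block, 1 fit of all groups, and each library left out.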

Additional observations from a re-analysis of the deposited data

How the results depend on the processing

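Under the replicate block 1 helicase was called higher and 3 lower after auxin, and 24 and 11 in wild type. This block called 1930 of 16128 tested genes after auxin, against 677 without it. In wild type it called 9689 of 15778, against 9555. Same-numbered libraries did not deviate together over all genes (r = 0.067 for the auxin and -0.028 for the wild-type libraries, across 16467 genes). A pairing that touches only part of the genes might not show in these values and was not tested. After auxin, the single gene called higher became 0 with the mitochondrial scaling, DESeq2, no filter, the 10-count filter and a log2 threshold of 1, and 0 to 1 with a library left out. The genes called lower were 2 in 1 fit of all 3 groups and 0 to 4 with a library left out, with 4 without untreated replicate 1. In wild type, a log2 threshold of 1 left 2 higher and 1 lower, DESeq2 gave 21 and 7, and the mitochondrial scaling gave 0 and 52. Over all genes DESeq2 called 7085 of 24746 and the mitochondrial scaling 15308 of 15778. Leaving out a library gave 20 to 28 higher and 5 to 15 lower, with 5 lower without wild-type replicate 2. Leaving out 1 library leaves 1 in its group, which is then assumed to vary like the others. Other alternatives kept the counts within 1.5 times. The causes were not tested.

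After auxin, log2 fold changes close to 0 changed sign. Ddx3x was 0.002 with library totals. Ddx1 was -0.15 with the mitochondrial scaling, -0.009 with no filter and -0.006 in 1 fit of all groups. Ddx39b was -0.16, -0.018 and -0.016 in these, and -0.008 with DESeq2. Ddx39 was -0.14 and Ddx17 -0.12 with the mitochondrial scaling. With a library left out in turn, these ranged from -0.014 to 0.031 for Ddx1, -0.050 to 0.090 for Ddx39, -0.021 to 0.019 for Ddx39b and -0.047 to 0.014 for Ddx3x. In wild type, Ddx5 was -0.038 with library totals. With the mitochondrial scaling, where the median of all genes was -2.10 and that of the helicases -1.94, the reversed log2 fold changes were Aggf1 -1.38, Ddx1 -1.96, Ddx10 -1.52, Ddx11 -1.34, Ddx19b -1.96, Ddx21 -1.77, Ddx23 -1.60, Ddx24 -1.47, Ddx31 -1.62, Ddx39b -1.99, Ddx4 -1.48, Ddx42 -1.55, Ddx46 -1.59, Ddx5 -2.08, Ddx50 -1.70, Ddx51 -1.79, Ddx52 -1.86, Ddx54 -1.62, Ddx6 -1.08, Dhx15 -1.40, Dhx16 -1.59, Dhx30 -1.83, Dhx33 -1.55, Dhx36 -1.81, Dhx37 -1.86, Dhx40 -1.85, Dhx58 -0.50, Dhx8 -1.72, Dhx9 -1.42, Dkc1 -1.08, Lsm14b -1.23, Mov10 -0.85, Mov10l1 -0.98, Nolc1 -1.41, Nop10 -1.45, Pdcd4 -1.10, Polr1b -1.21, Polr1d -1.51, Rbm6 -1.59, Rrn3 -1.09 and Son -1.57. This scaling moved all genes by the same factor.

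Depth limits Dhx58, Ddx60 and Ddx25, whose counts were under 100 in a library. With 2 libraries per group the spread is estimated from all genes together. The degron line is 1 clone, the wild-type libraries have their own table, and no added RNA fixes the total amount of mRNA.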
